A study of Mus musculus with 10 samples.

Results

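C-type lectin receptors are membrane proteins that bind sugars or lipids of microbes and damaged cells, and macrophages, dendritic cells and neutrophils carry many of them. 9 such genes, of 18384 genes listed in the mRNA-seq tables, are described here in cultured mouse adipocyte precursors (APs) with and without interleukin-4 (IL-4). They were chosen by name, with earlier results of these data known. Clec4e, Clec4d, Clec4n and Clec7a encode activating receptors (Mincle, MCL, Dectin-2 and Dectin-1), Clec4a2 and Clec12a inhibitory receptors (DCIR1 and MICL), and Clec10a, Mgl2 and Mrc1 endocytic receptors (MGL1, MGL2 and the mannose receptor CD206). After IL-4, Mgl2, Clec10a and Clec7a were higher, Mrc1 was higher by a smaller amount, Clec4e, Clec4d, Clec4n and Clec12a were lower, and Clec4a2 did not pass the test.

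The study asked how IL-4, a type 2 cytokine, alters gene expression in APs of white fat. The cells came from subcutaneous white adipose tissue of C57BL/6J mice. They were depleted of cells bearing CD45 (leukocytes) and CD31 (endothelial cells) and then enriched for SCA-1 on magnetic columns. The mRNA was sequenced from 3 control cultures and from 3 cultures kept in medium with IL-4 for 4 days, all in DMEM F12 with serum, and the series describes the libraries of a group as biological replicates. The age, sex and number of mice behind a culture and the dose of IL-4 are not given in the sources used here. A bulk library sums all cells of a culture, so fewer cells of a type and less RNA per cell cannot be told apart in any value below.

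Clec4e, Clec4d and Clec4n have short cytoplasmic tails and signal through the adaptor FcRγ (Fcer1g), whereas Clec7a, the receptor for fungal β-glucan, carries its own signalling motif. Both routes lead to the kinase Syk and the adaptor Card9. Clec4a2 and Clec12a carry an inhibitory motif (ITIM) that recruits phosphatases such as SHP-1 (Ptpn6). The endocytic receptors take up glycoproteins, with galactose-type sugars bound by MGL1 and MGL2 and mannose by CD206. Mgl2, Clec10a and Mrc1 are widely used as markers of macrophages that have responded to IL-4.

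Clec7a rose while Clec4e and Clec4d, on the same chromosome, fell, so the 250 bases before the transcription start of these 3 genes are shown for comparison. The windows are from RefSeq on GRCm38.p6, the assembly that mm10 represents, they overlap no annotated exon, and each is written 5′ to 3′ in the direction of its gene. Capitals mark matches on either strand to TTCNNNNGAA, the spacing bound by STAT6, which IL-4 activates, to GAGGAA, the core site of the myeloid factor PU.1, and to TTGCNNAA, a C/EBP-type site.

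Clec7a (chr6:129472786-129473035, minus strand): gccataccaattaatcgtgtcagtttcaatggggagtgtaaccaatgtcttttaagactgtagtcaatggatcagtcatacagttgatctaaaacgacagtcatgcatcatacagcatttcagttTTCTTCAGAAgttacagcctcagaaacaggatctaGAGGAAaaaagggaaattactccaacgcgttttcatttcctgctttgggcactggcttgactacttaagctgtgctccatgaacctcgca

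Clec4e (chr6:123289872-123290121, minus strand): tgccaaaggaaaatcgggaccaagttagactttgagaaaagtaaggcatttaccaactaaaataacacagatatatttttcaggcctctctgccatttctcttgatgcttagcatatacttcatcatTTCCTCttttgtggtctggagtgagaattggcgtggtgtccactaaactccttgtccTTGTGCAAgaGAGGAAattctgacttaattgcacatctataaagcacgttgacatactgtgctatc

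Clec4d (chr6:123261857-123262106, plus strand): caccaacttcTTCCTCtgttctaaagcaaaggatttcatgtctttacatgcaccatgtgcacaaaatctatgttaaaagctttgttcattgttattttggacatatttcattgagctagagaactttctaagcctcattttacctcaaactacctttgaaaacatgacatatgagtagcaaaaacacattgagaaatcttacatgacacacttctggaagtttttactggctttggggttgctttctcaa

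The Clec7a window held TTCTTCAGAA, a match to TTCNNNNGAA, from 125 to 116 bases before the start, and 1 match to GAGGAA from 90 to 85 bases before it. The Clec4e window held 2 matches to GAGGAA and, between them, 1 to TTGCNNAA. The Clec4d window held 1 match to GAGGAA. Windows of the same length were read for 7 of the 9 genes, and none was available for Clec4n and Clec10a. Of these 7 genes only Clec7a had a match to TTCNNNNGAA. The motif was found in 5.85% of the 32851 windows available for RefSeq genes, where a gene can have more than 1 window or none. Mgl2 and Mrc1, which also rose, had no match to TTCNNNNGAA in their windows. The Mgl2 window overlapped 3 annotated exons and lay mostly inside the annotated gene. The Clec12a window also lay inside its annotated gene. For these genes the sequence before the annotated gene start was thus largely not read. GAGGAA occurred in the windows of 6 of the 7 genes, and in 23.3% of all windows. The other motifs searched, again on both strands, were TTGCNNAA (9.56% of all windows, here in Clec4e and Clec12a), TTCNNNGAA (7.02%, here in Clec4a2), GGGANNNTCC of NF-kappaB type (3.86%, here in Mgl2) and TGANTCA of AP-1 type (6.75%, here in Clec12a). No matches of different motifs overlapped in a window. These matches describe letters only, and binding was not measured.

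A second sequence bears on how 2 members could be counted. Mgl2 and Clec10a are neighbours on chromosome 11, 29.1 kb apart with no other protein-coding gene between them, and their coding sequences were 92.0% identical over 916 aligned bases. The longest run of identical letters, 183 bases, spans exons 7 to 9 of both genes, at chr11:70136337-70136699 in Mgl2 and chr11:70169822-70170189 in Clec10a, both on the plus strand, and is shown here without the introns.

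Coding run shared by Mgl2 and Clec10a: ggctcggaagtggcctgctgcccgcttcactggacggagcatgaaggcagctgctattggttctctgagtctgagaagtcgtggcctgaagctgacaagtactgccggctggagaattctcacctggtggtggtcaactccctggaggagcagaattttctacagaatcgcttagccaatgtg

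A read that lies inside this run fits both genes equally well, and the software behind the tables, RSEM, divides such reads by estimate. Of all 50-base stretches of the annotated transcripts, 12.2% of those of Mgl2 also occurred in Clec10a, and 8.49% of those of Clec10a in Mgl2. For Clec4a2, 3.85% of the stretches also occurred in Clec4a4, while Clec4e, Clec4d, Clec7a and Mrc1 shared none with another gene. Counted against all other genes, the shares were 13.1% for Mgl2, 9.02% for Clec10a and 6.69% for Clec4a2. They were 0.686% for Clec4n and 0.402% for Clec12a. The estimated counts were whole numbers in all 6 libraries for 6 members. For Mgl2 and Clec10a they were whole in the controls and not whole with IL-4. For Clec4a2 only IL-4 replicate 4, at 246.98, was not whole.

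The totals of estimated counts ranged from 28526782 to 29057787 over the 6 libraries. Levels are given as normalized counts, which are counts scaled to a common library size by the TMM method, and the quasi-likelihood test of edgeR was run on 14009 genes with Benjamini-Hochberg adjustment. A gene was called where the adjusted p was under 0.05 and the log2 fold change (IL-4 over control) lay beyond 1 in either direction. By this rule 809 genes, 5.77% of those tested, were called higher and 737 genes, 5.26%, lower. With libraries scaled by their totals alone the split was 657 higher to 961 lower. Of the 9 members, 3 were called higher and 4 lower. The normalized counts of control and IL-4 cultures did not overlap for 8 of the 9 members, against 50.4% of all genes tested.

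**Figure D1:**
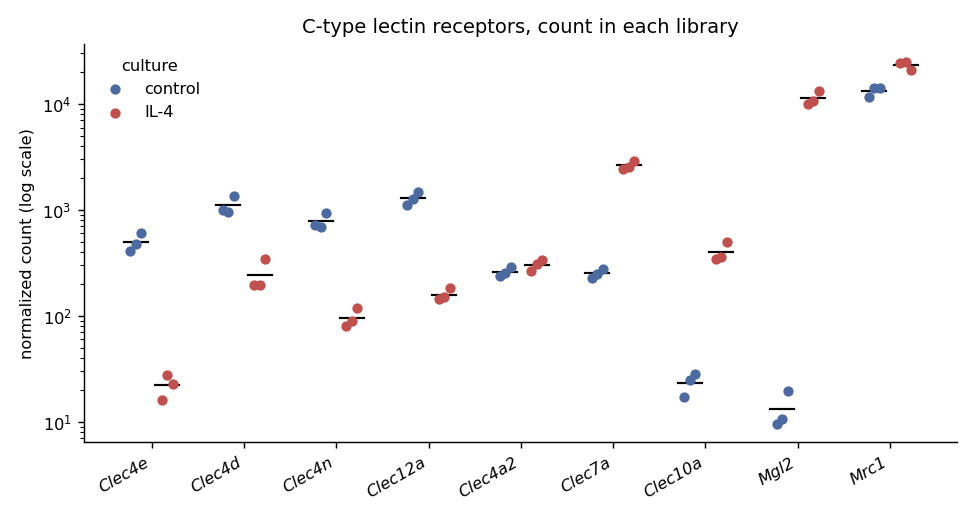
Normalized counts (log scale) of the 9 genes in each library, with 3 control and 3 IL-4 cultures per gene, where points are libraries and horizontal lines are group means. The groups overlap only for Clec4a2, and Mgl2 moves from a mean of 13.3 to a mean of 11283.

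Mgl2 differed most. It had 9.51, 10.6 and 19.7 normalized counts in the control cultures and 10049, 10644 and 13156 in the IL-4 cultures. Every IL-4 culture stood far above every control. The mean rose from 13.3 ± 5.61 to 11283 ± 1649 (SD, n = 3 per group), an 851-fold difference. The log2 fold change was 9.72 with a 95% interval from 9.22 to 10.21 (edgeR, adjusted p = 8.20e-08). Mgl2 ranked 11th from the top of the 14009 genes by log2 fold change. The control level rested on 10, 11 and 21 reads. Without control replicate 3, the highest of them, the log2 fold change was 10.12.

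Clec10a, which encodes the other galactose-type receptor, rose as well but reached a far lower level. Its normalized counts were 17.1, 24.9 and 28.1 in control and 341, 363 and 499.7 in IL-4 cultures, with no overlap. The mean rose 17.2-fold, from 23.4 ± 5.68 to 401 ± 85.9 (SD, n = 3 per group), with a log2 fold change of 4.09 ± 0.23 (SE, edgeR adjusted p = 4.98e-06). In FPKM (fragments scaled to transcript length and library size), which allows genes to be compared with each other, the ratio of Mgl2 to Clec10a was between 0.406 and 0.671 in the controls and between 25.4 and 28.4 with IL-4. Clec10a had the higher level of the pair in all 3 controls, and Mgl2 in all 3 IL-4 cultures. The Clec10a estimates were whole in the controls and 319.25, 340.23 and 484.48 reads with IL-4, and how many of these reads came from Mgl2 was not tested.

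Mrc1, the mannose receptor, was the most abundant member in the controls. It had 11609, 14258 and 14151 normalized counts in control and 24529, 24869.9 and 21008 in IL-4 cultures. The lowest IL-4 culture stood above the highest control. The mean rose 1.76-fold, from 13339 ± 1499 to 23469 ± 2138 (SD, n = 3 per group), with a log2 fold change of 0.82 and a 95% interval from 0.58 to 1.05 (edgeR, adjusted p = 4.66e-04). The difference passed the adjusted p but not the fold threshold. At the adjusted p alone, 19.0% of all genes tested were higher, and so were 4 of the 9 members.

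Clec7a, Dectin-1, was the only activating receptor of the set that rose. Its normalized counts were 229, 249 and 279 in control and 2453, 2550.4 and 2904 in IL-4 cultures. The groups lay an order of magnitude apart and the libraries within each were close. The mean rose 10.5-fold, from 252 ± 25 to 2636 ± 237 (SD, n = 3 per group), with a log2 fold change of 3.39 and a 95% interval from 3.15 to 3.62 (edgeR, adjusted p = 2.51e-07).

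The 3 activating receptors that couple to FcRγ all fell. Clec4e, Mincle, which senses mycobacterial glycolipid and a ribonucleoprotein of dead cells, had 409, 475 and 609.8 normalized counts in control and 16.0, 27.8 and 22.7 in IL-4 cultures. The highest IL-4 culture was more than an order of magnitude below the lowest control. The mean fell 22.5-fold, from 498 ± 102 to 22.2 ± 5.87 (SD, n = 3 per group), with a log2 fold change of -4.48 and a 95% interval from -5.01 to -3.95 (edgeR, adjusted p = 3.23e-06). Clec4e ranked 14th from the bottom of all genes tested.

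Clec4n, Dectin-2, which binds mannans of fungi, had 727, 686 and 933 normalized counts in control and 80.2, 89.7 and 118 in IL-4 cultures. The mean fell 8.16-fold, from 782 ± 133 to 95.9 ± 19.5 (SD, n = 3 per group), and the log2 fold change was -3.02 ± 0.17 (SE, edgeR adjusted p = 6.04e-06). Clec4d, MCL, which pairs with Mincle at the cell surface, had 994, 966 and 1369.7 normalized counts in control and 195, 194 and 345 in IL-4 cultures. Its mean fell 4.54-fold, from 1110.1 ± 225 to 245 ± 86.8 (SD, n = 3 per group), and the log2 fold change was -2.18 ± 0.24 (SE, edgeR adjusted p = 2.19e-04). For both genes the groups stood clear of each other. The interval of the log2 fold change of Clec4d, from -2.73 to -1.63, did not reach that of Clec4e. IL-4 replicate 6 held the highest Clec4d value of its group, and without it the log2 fold change of Clec4d was -2.51.

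The inhibitory receptors parted. Clec12a, MICL, which binds uric acid crystals, had 1117, 1269 and 1480.3 normalized counts in control and 144, 151 and 183 in IL-4 cultures. The mean fell 8.09-fold, from 1289 ± 183 to 159 ± 20.6 (SD, n = 3 per group), with a log2 fold change of -3.01 ± 0.14 (SE, edgeR adjusted p = 1.64e-06). Clec4a2, DCIR1, had 239, 255 and 287 normalized counts in control and 264, 309.6 and 338 in IL-4 cultures. These ranges overlapped. The means were 260.3 ± 24.6 and 304 ± 37.0 (SD, n = 3 per group), and the log2 fold change was 0.22 with a 95% interval from -0.05 to 0.50 (edgeR, adjusted p = 0.183). A rise of up to 0.50 on the log2 scale is thus within the interval.

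**Figure D2:**
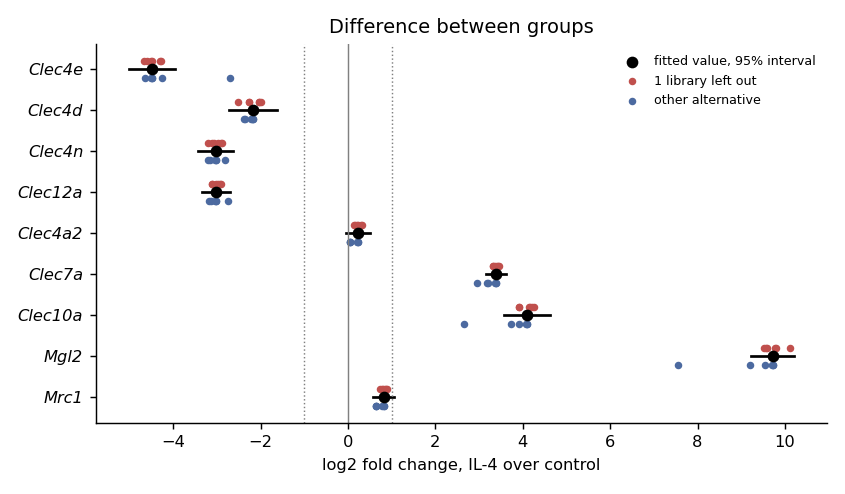
Log2 fold change (IL-4 over control) of the 9 genes, where black points and bars are edgeR estimates with 95% intervals, red points leave out 1 library each, blue points are the other alternatives, and dotted lines mark -1 and 1. Clec4a2 is the only gene whose interval includes 0, and the blue points of Clec4e (-2.69), Clec10a (2.65) and Mgl2 (7.55) that lie apart come from log2(FPKM + 1).

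The order of the members by mean level changed, with Mgl2, Clec10a and Clec7a moving up past others. Mrc1, Clec4d, Clec4n, Clec12a and Clec4e kept their order among themselves. In the controls Mrc1 led with a mean of 93.4 FPKM, followed by Clec4d (32.3), Clec4n (25.2) and Clec12a (22), then Clec4e (7.48), Clec7a (4.46) and Clec4a2 (3.96), and last Clec10a (0.603) and Mgl2 (0.33). Neighbours in this order overlapped between libraries for Clec4d and Clec4n, for Clec4n and Clec12a, for Clec7a and Clec4a2, and for Clec10a and Mgl2. The level of Mrc1 was above that of 96.2% of all genes listed, and the level of Mgl2 above that of 28.7%.

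With IL-4, Mgl2 led with a mean of 249 FPKM, followed by Mrc1 (146), Clec7a (41.1), Clec10a (9.18), Clec4d (6.32), Clec4a2 (4.11), Clec4n (2.74), Clec12a (2.42) and Clec4e (0.297). Here the ranges of Clec10a and Clec4d overlapped, and so did those of Clec4n and Clec12a. Mgl2 had gone from the last place to the first, above 98.7% of all genes listed, and Clec4e to the last. Mgl2 made up 54.0% of the members' summed mean FPKM with IL-4 and 0.174% in control, whereas Mrc1 made up 31.6% and 49.2%. Clec4e, Clec4d and Clec4n together held from 30.5% to 37.0% of the members' FPKM in the control libraries and from 1.74% to 2.52% in the IL-4 libraries. The sum over all 9 genes ranged from 167 to 216 FPKM in control and from 429 to 506 with IL-4.

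**Figure D3:**
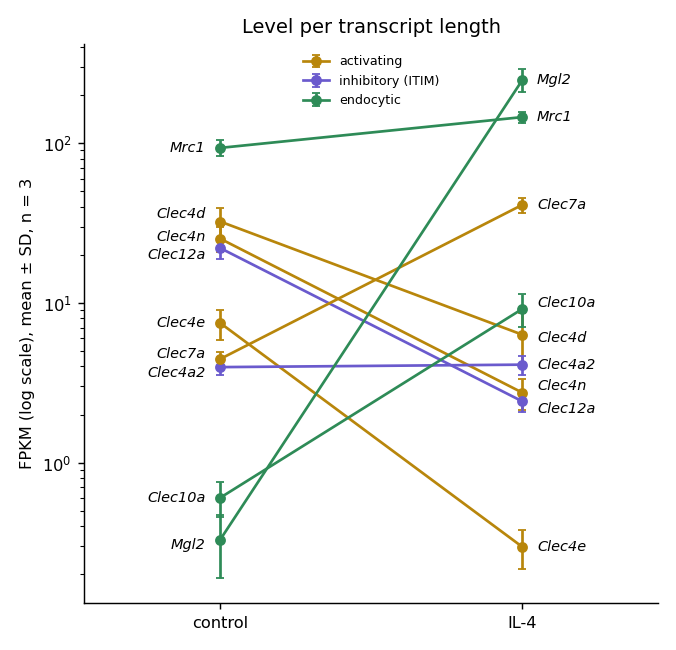
Mean FPKM (log scale, error bars SD, n = 3 per group) of the 9 genes in control and IL-4 cultures, coloured by receptor class. Mgl2 (0.33 to 249) goes from the last place to the first, and Clec4e (7.48 to 0.297) to the last.

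8 of the 9 genes sit in 3 gene clusters (RefSeq, GRCm38.p6), and differences of opposite sign occurred within a cluster. In the Dectin-2 cluster on chromosome 6, Clec4a2 (chr6:123122690-123143999) did not pass the test, while Clec4n (chr6:123229843-123247024), Clec4d (chr6:123262107-123275268) and Clec4e (chr6:123281789-123289871) all fell. Clec4n and Clec4d lie 15.1 kb apart and Clec4d and Clec4e 6.52 kb apart, with no protein-coding gene between the members of either pair. In the same cluster Clec4a3, a relative of Clec4a2, was called higher (log2 fold change 1.22 ± 0.16 SE, edgeR adjusted p = 6.29e-04). Clec4a1 was lower without reaching the fold threshold (-0.72 ± 0.19 SE, edgeR adjusted p = 0.0201). Clec4a4, Clec4b1 and Clec4b2 had at most 5 reads in any library.

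In the Dectin-1 cluster, Clec12a (chr6:129349783-129365303) and Clec7a (chr6:129461591-129472785) lie 96.3 kb apart. The first fell and the second rose. Clec1a, just beside Clec7a, was higher without reaching the fold threshold (log2 fold change 0.70 ± 0.22 SE, edgeR adjusted p = 0.0398), at no more than 43 reads in any library. Olr1, the receptor for oxidized LDL on the other side of Clec7a, was lower, again within the fold threshold (-0.47 ± 0.13 SE, edgeR adjusted p = 0.0238). Clec2d, which was abundant, did not pass (0.28, edgeR adjusted p = 0.191), and Clec2e, with 16 reads at most, was called lower at -1.01 (edgeR, adjusted p = 0.0344). Cd69, Clec1b, Clec2m, Clec9a, Clec12b, Klrb1-ps1 and the 7 other Klr genes of the region had at most 10 reads in any library and were not tested.

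On chromosome 11, Mgl2 (chr11:70130125-70137542) and Clec10a (chr11:70166623-70170836) both rose, and the hepatic receptor genes beside them, Asgr1 and Asgr2, had at most 9 reads. Mrc1 lies apart on chromosome 2 (chr2:14229414-14332023). In all, 24 other C-type lectin and lectin-like genes lie within 250 kb of a member. Of these, 6 were tested, 9 had no read, and 9 had too few reads for the test.

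**Figure D4:**
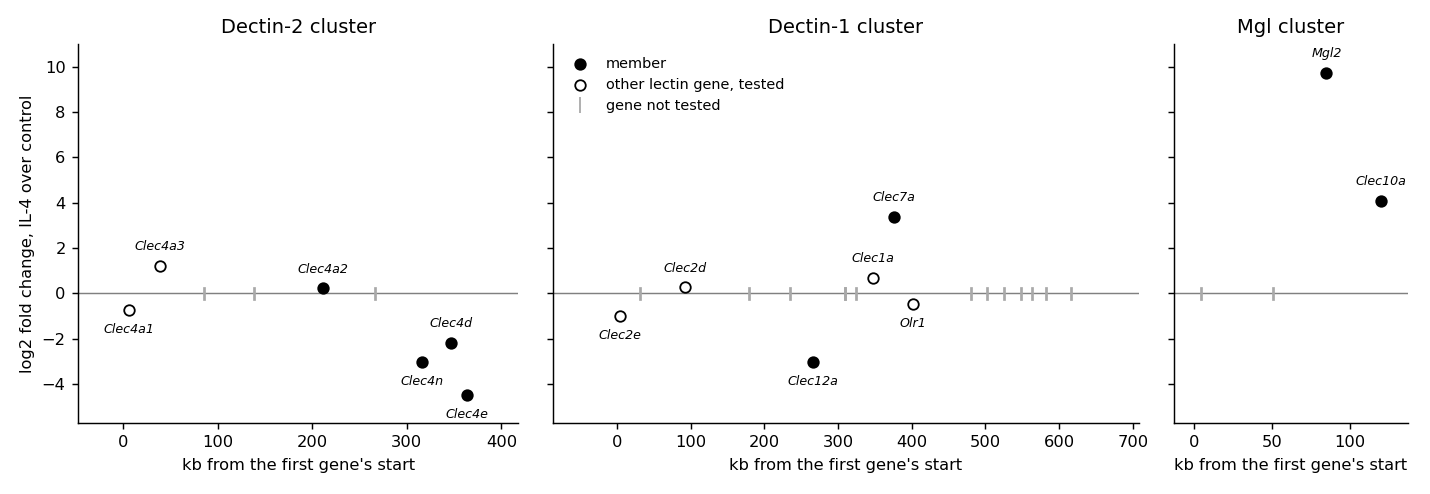
Log2 fold change (IL-4 over control, edgeR) against the distance in kb from the first gene of each cluster, at the middle of each gene, where filled points are members, open points are other tested lectin genes, and grey ticks are genes not tested. In the Dectin-1 cluster Clec12a (-3.01) and Clec7a (3.39) lie 96.3 kb apart with opposite signs.

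Other C-type lectin receptors were called in both directions. The list was not limited to receptors of myeloid cells, since it held the hepatic Asgr1 and Asgr2. Of 29 such genes listed beside the members, 11 were tested, 2 were called higher and 2 lower, and the median log2 fold change was 0.25, against 0.00256 over all genes tested. This median was 0.03 without control replicate 2, 0.12 without IL-4 replicate 6 and 0.08 with library totals, while 2 genes were still called in each direction. Clec5a, an activating receptor that signals through DAP12 (Tyrobp), fell from 776 ± 59.9 to 224 ± 17.4 normalized counts (SD, n = 3 per group), a log2 fold change of -1.79 (edgeR, adjusted p = 3.87e-06). Ly75, the endocytic receptor DEC-205, fell by 1.33 on the log2 scale (edgeR, adjusted p = 4.28e-03). Beside Clec4a3, the other gene called higher was Cd209e, a relative of DC-SIGN, which had no read in any control and from 11 to 21 reads with IL-4. Ly75 and Cd209e are named because few genes were called, after their values were seen. Of the most abundant genes of this list, Cd302 (log2 fold change 0.26, edgeR adjusted p = 0.136) and Cd72 (-0.25, edgeR adjusted p = 0.164) did not pass.

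Lectin-domain proteins of stromal cells served for comparison. Of 13 listed, 11 were tested, 1 was called higher and 1 lower, with a median log2 fold change of 0.20. Mrc2, the collagen receptor related to Mrc1, had a log2 fold change of 0.21 (edgeR, adjusted p = 0.230) at a level of 116 ± 8.48 FPKM in control and 119 ± 17.3 with IL-4 (SD, n = 3 per group). Its level in control was thus near that of Mrc1. Cd93, found on endothelial and myeloid cells, fell by 2.24 on the log2 scale (edgeR, adjusted p = 1.37e-06). Cd248 (0.52 ± 0.06 SE, edgeR adjusted p = 2.38e-04) and Layn (0.65 ± 0.07 SE, edgeR adjusted p = 2.04e-04) were higher within the fold threshold. Thbd (0.20, edgeR adjusted p = 0.0613) and Colec12 (-0.02, edgeR adjusted p = 0.801) did not pass. The gene called higher was Clec3b, tetranectin, with a log2 fold change of 5.39 from a control level of 7.90 ± 4.45 normalized counts (SD, n = 3, edgeR adjusted p = 2.46e-06), named after its value was seen.

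All 20 signalling proteins listed that act with or below these receptors were tested. By edgeR, as by DESeq2, none was called higher and 7 were called lower, while edgeR called 5.26% of all genes tested lower. Both at the adjusted p alone and at an unadjusted p under 0.05, 2 were higher and 12 lower. The share of all genes lower at these limits was not counted. The median log2 fold change was -0.59. Fcer1g itself, the adaptor of Clec4e, Clec4d and Clec4n, fell from 5464 ± 812 to 2687 ± 627 normalized counts (SD, n = 3 per group), a log2 fold change of -1.02 ± 0.17 (SE, edgeR adjusted p = 1.92e-03). This was a smaller fold than for any of the 3 receptors, although the differences between genes were not tested. Tyrobp was lower within the fold threshold (-0.62 ± 0.19 SE, edgeR adjusted p = 0.0329). Src (0.22) and Prkcd (0.28) were higher within the threshold (edgeR, adjusted p = 0.0315 and 0.0128), whereas Ptpn11 (-0.11) did not pass.

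Among the other genes of the pathway, named after their values were seen, Syk did not pass (log2 fold change -0.02 ± 0.09 SE, edgeR adjusted p = 0.893), nor did Malt1 (0.01, edgeR adjusted p = 0.946). Card9 was lower within the fold threshold (-0.76, edgeR adjusted p = 9.10e-03). Called lower beside Fcer1g were the kinase Lyn, Plcg2 (-1.55), Vav1 (-1.66), Nfatc2 (-1.54), and the phosphatases Ptpn6 (-1.60) and Inpp5d (-1.32), the last 2 known to act below ITIM receptors. Fcer1g and Lyn lay at the threshold, and the count of 7 was 5 when control replicate 3, IL-4 replicate 4 or IL-4 replicate 5 was left out.

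Of 15 genes that these receptors are known to induce, 10 were tested, 1 was called higher and 6 lower, with a median log2 fold change of -1.59. Over all genes tested, 5.77% were called higher and 5.26% lower. Tnf had 215 ± 18.3 normalized counts in control and 22.6 ± 5.62 with IL-4 (SD, n = 3 per group), a log2 fold change of -3.25 (edgeR, adjusted p = 4.16e-06). The chemokine genes Ccl3 (-2.82) and Ccl4 (-3.12), the transcription factor gene Egr3 (-2.15) and Ptgs2 (-1.02), which encodes cyclooxygenase-2, fell too (edgeR, adjusted p from 1.08e-05 to 3.92e-04). Egr2 was higher, just below the fold threshold (edgeR, adjusted p = 2.42e-04), and it was called as a second gene, making 2 higher, without control replicate 2, IL-4 replicate 4 or IL-4 replicate 5. In those fits and without control replicate 3, 11 genes of the list were tested, Cxcl2 among them, and the median lay between -1.13 and -1.02. The gene called higher was Nos2, inducible nitric oxide synthase, with a log2 fold change of 3.52 (edgeR, adjusted p = 2.02e-05), and the sixth called lower was Il10, both named after their values were seen. Many other receptors also regulate these genes.

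**Figure D5:**
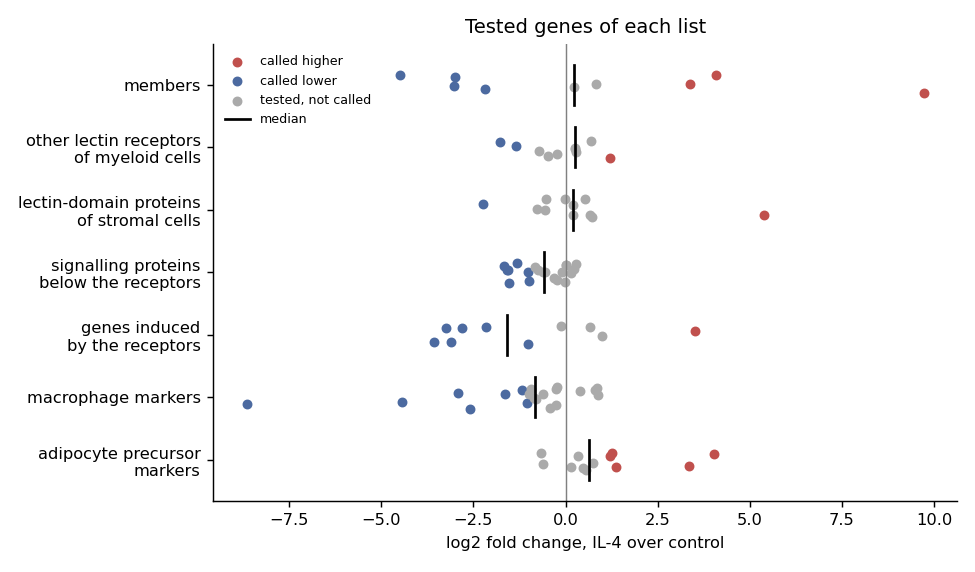
Log2 fold change (IL-4 over control, edgeR) of every tested gene of each list, coloured by call, with the list median as a black line and without Cd209e, which had no read in the controls. Members lie on both sides of 0, from -4.48 to 9.72. Called lower were 7 of 20 signalling genes and 7 of 20 macrophage markers, against 5.26% of all genes tested.

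Transcripts known as macrophage markers were abundant although CD45-bearing cells had been depleted, and most of them were lower with IL-4. Ptprc, which encodes CD45, had a mean of 18.3 FPKM in control and 8.22 with IL-4. All 20 macrophage markers listed were detected. None was called higher and 7 were called lower by edgeR, as by DESeq2, while edgeR called 5.26% of all genes tested lower. At the adjusted p alone 3 were higher and 15 lower, and at an unadjusted p under 0.05 4 were higher. Of all genes tested, 19.0% were higher at the adjusted p alone, and the share lower was not counted. The median log2 fold change of the markers was -0.83. Their summed level ranged from 4609 to 6023 FPKM in control and from 2045 to 2783 with IL-4. Lyz2, lysozyme, fell by 1.64 and Laptm5 was lower by 0.61 on the log2 scale, while Ctss, cathepsin S, was higher by 0.79 (edgeR, adjusted p = 5.90e-05, 3.96e-04 and 2.77e-03). The markers ranged from -8.65 for Cx3cr1 to 0.88 for Cd163, a narrower span upwards than that of the members. The part of macrophage content in the members' differences was not tested.

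Libraries that ranked high for the members also ranked high for these markers. Control replicate 3 was the highest control for 8 of 9 members, for 18 of 20 macrophage markers and for 41.8% of all genes tested. IL-4 replicate 6 was the highest IL-4 culture for 7 of 9 members, 15 of 20 macrophage markers and 43.8% of all genes. Without either library the calls of all 9 members were the same.

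Genes that macrophages raise after IL-4 rose together with Mgl2. Of 11 listed, 9 were tested and all 9 were called higher, against 5.77% of all genes tested. The list was chosen with earlier results of these data known, so this count is not independent evidence. The summed level went from between 34.6 and 42.5 FPKM in control to between 3364 and 4548 with IL-4. Chil3 rose from 28.2 ± 38.2 to 69884 ± 8010.0 normalized counts, Arg1 from 93.0 ± 56.8 to 60146.5 ± 9456 and Retnla from 6.90 ± 8.65 to 12541 ± 2849 (SD, n = 3 per group). The 2 genes not tested, Alox15 and Ccl17, had at most 7 reads in any library.

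Markers of neutrophils, mast cells, eosinophils, basophils and lymphocytes were sparse, while those of dendritic cells were in part higher with IL-4. Of 8 dendritic cell markers 4 were tested, and Itgax, shared with macrophages, rose from 173 ± 27.8 to 3037 ± 157 normalized counts (SD, n = 3 per group, edgeR adjusted p = 1.99e-07), as did Batf3, named after its value was seen. Zbtb46 (log2 fold change 0.04) and Cd83 (0.10) did not pass, Flt3 and Ccr7 had at most 3 reads in any library, and Siglech had none. The summed level went from between 5.39 and 6.45 FPKM to between 29.6 and 31.5. Neutrophil markers summed to at most 1.78 FPKM in any library and those of lymphocytes to at most 0.40, with Cd3e and Ncr1 at 0. Those of mast cells, eosinophils and basophils summed to between 0.17 and 0.39 FPKM in control and between 0.43 and 0.72 with IL-4. Without the filter for low counts, 1 gene of this last list was called higher. None of the 4 tested genes of these lists (Csf3r, Cxcr2, Ccr3 and Cd8a) was called by edgeR or DESeq2 or had an unadjusted p under 0.05, and all 4 had edgeR adjusted p of at least 0.373.

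The markers of the labelled cell type were abundant. All 12 AP markers were tested, and 5 were called higher and none lower by edgeR, as by DESeq2. Over all genes tested, edgeR called 5.77% higher and 5.26% lower. At an unadjusted p under 0.05, 2 AP markers were lower. The median log2 fold change of the AP markers was 0.64, and their sum went from between 6391 and 6694 FPKM to between 9554 and 10218. The most abundant were Col1a1 (log2 fold change 0.33), Col3a1 (1.37) and Pdgfrb (-0.66), all past the adjusted p in edgeR's test. Endothelial markers summed to between 14.8 and 15.5 FPKM in control and between 15.3 and 17.5 with IL-4, with 1 of 9 called higher (Vwf, 3.08) and 4 lower, and with Tek at 0.81 (edgeR, adjusted p = 1.51e-03) and Kdr not past the test (-0.07). The part of these shifts in the members' differences was not tested either.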

How the data were processed

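The authors extracted RNA with TRIzol, selected poly(A) RNA, sequenced on the BGISEQ-500 platform, filtered reads with SOAPnuke and mapped them to mm10. HISAT, StringTie, Bowtie2 and RSEM are named in the submitters' processing notes, with versions and the use of strand not given in the sources used here. For each library the authors deposited RSEM expected counts per gene, of which 87.0% above 0 are whole numbers, and FPKM values. A gene without a row in a library was taken as 0, and 1 row without a gene, at most 0.000225% of counts, was dropped. Total expected counts per library were 28526782 to 29057787. The 9 genes and all gene lists were chosen with earlier results of these data known. For each list the most abundant genes were named (6 for lectin and signalling lists, 3 for marker lists), as well as lectin genes within 250 kb of a member, except for a gene that is not reported here. The small RNA libraries and tables of the authors' own comparisons were not used here.

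Expected counts were rounded, filtered (filterByExpr, minimum count 10, minimum total 15), scaled by TMM and tested in edgeR 4.0.16 (R 4.3.3) on 3 control and 3 IL-4 libraries, without covariates. The thresholds for a call were 0.05 for the Benjamini-Hochberg adjusted p and 1 in either direction for the log2 fold change. The SE is the log2 fold change divided by the root of F, and the biological coefficient of variation was 0.0939. The code was checked on counts simulated with the means of these data and the spreads that edgeR estimated. Such a check cannot speak to the calls in the real data. FPKM served for levels between genes. Alternatives were DESeq2 1.42.0, upper-quartile scaling, library totals, omission of the filter, FPKM values fitted by limma 3.58.1 after adding 1 or 0.1 and taking log2, and each library left out in turn. Promoters came from RefSeq (GRCm38.p6) and 50-base stretches from the GENCODE M21 transcripts. Intervals rest on 3 libraries per group, with the spread of each gene moderated by edgeR over all genes tested.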

Additional observations from a re-analysis of the deposited data

How the results depend on the processing

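All 9 members kept their direction and their side of the test's thresholds in each of the 12 alternatives, 108 values in all, and 3 were called higher and 4 lower every time. Over the alternatives the adjusted p of Clec4a2 ranged from 0.0729 to 0.781, and that of Mrc1 reached at most 2.72e-03. Limma on log2(FPKM + 1) called 348 of all genes higher and 352 lower, against 809 and 737, and gave log2 fold changes of -2.69 for Clec4e, 2.65 for Clec10a and 7.55 for Mgl2. The added 1 shrinks differences of low values by construction. Scaling by library totals moved the median of all genes from 0.00256 to -0.17, so that the medians of the neutrophil markers (-0.0456) and of the lymphocyte markers (-0.0422), resting on 2 genes and 1 gene, changed sign. The value of Ccr3, the 1 tested gene of the mast cell, eosinophil and basophil list, also changed sign, from 0.19 to -0.06 without control replicate 1 and to -0.16 without IL-4 replicate 6, within the spread between libraries. Of 120 list medians, which leave out both limma fits, 25 others moved by more than that spread, all without changing sign. In both limma fits the neutrophil, lymphocyte and Ccr3 values lay just below 0, between -0.0298 and -0.00396. The count of macrophage markers called lower was 10 with library totals, and 6 without control replicate 3. The count of endothelial markers called lower was 2 without control replicate 1 or IL-4 replicate 6. Log2(FPKM + 1) called 3 genes induced by the receptors lower, and none of the other lectin receptors higher.

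No paired analysis was possible because the control libraries are numbered 1 to 3 and the IL-4 libraries 4 to 6, so that no number is shared. With 3 libraries per group, differences such as that of Clec4a2 are bounded only by the interval given. Genes with a few reads, such as Clec4b1 or Clec9a, could not be compared at this depth.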
